A study of Mus musculus with 6 samples.

Results

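The aldo-keto reductases described here are 7 genes, Akr1a1, Akr1b3, Akr1b7, Akr1b8, Akr1b10, Akr1c13 and Akr7a5, of 56636 rows in a table of gene expression from RAW264.7, a mouse macrophage-like cell line. They were found by gene symbol, and all 7 were present under these names. The set was chosen by the values of Akr1b8, which was even among the vehicle libraries and at less than 0.5 times that level after treatment. The treated against vehicle values below are therefore a description, and no p is given for any of the 7. The series comes from work on microRNA miR-9-5p released by cancer cells and cholesterol homeostasis. It holds 6 libraries of total RNA from wild-type cells kept for 24 h with vehicle (3 libraries) or with an agent labelled 25-HC (3 libraries), and the labels used here give neither the dose nor the vehicle. All cells belong to 1 line, and whether each library is its own culture is not stated, so their spread may be technical. Values are TPM (abundance scaled for transcript length and for the library total), so levels can be compared between genes, and sequencing depth is unknown.

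Aldo-keto reductases are mostly monomeric enzymes that use NADPH to reduce aldehydes and ketones to alcohols. They act on sugars, lipid peroxidation products, steroids, prostaglandins and drugs, and in macrophages they are best known for clearing reactive aldehydes made during oxidative stress. Akr1a1 is the aldehyde reductase that makes gulonate for ascorbate synthesis in mice. Akr1b3 is the mouse aldose reductase, which turns glucose into sorbitol and also makes a prostaglandin. Akr1b8 is a close relative first described as a protein induced by fibroblast growth factor, and Akr1b7 was described in vas deferens and adrenal, where it handles an aldehyde left by steroid synthesis. Mouse Akr1b10 belongs to the same cluster of genes. Akr1c13 belongs to the hydroxysteroid dehydrogenases, and Akr7a5 reduces aflatoxin aldehyde and succinic semialdehyde.

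The vehicle libraries were unlike each other, which touches every comparison below. Vehicle 2 had 9492 genes at 1 TPM or more, against 11238 in vehicle 1, 11994 in vehicle 3 and 11971 to 12005 in the 25-HC libraries. Over the 12092 genes that averaged 1 TPM or more, the median log2 difference between 25-HC and vehicle was 0.52, or 0.13 without vehicle 2. A gene therefore needs to be read against that median as well, though the shift need not be the same for every gene. Of 10 macrophage markers 9 had a mean of at least 1 TPM, while Mertk was listed at 0 in all libraries, and their summed level was 1735 to 2595 TPM with vehicle against 2537 to 2558 TPM with 25-HC. In 5 of the 10 every 25-HC library was above every vehicle library, and in 1 below. Of all genes tested 22.6% and 8.10% were so placed. The summed markers of epithelial cells, fibroblasts, lymphocytes and neutrophils reached at most 0.27, 0.76, 4.29 and 4.58 TPM in any library. Osteoclast markers summed to 54.9 to 153 TPM with vehicle against 97.6 to 104 TPM with 25-HC, and dendritic cell markers to 16.2 to 33.1 and 33.9 to 36.6 TPM, with Calcr and Clec9a at 0 in all libraries. Of the 8 osteoclast and 6 dendritic cell markers, 7 and 1 averaged at least 1 TPM. Every 25-HC library was above every vehicle library for 2 of the 8 and 1 of the 6, and below for 0 in either list. The part of these differences in the results was not tested.

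The 4 Akr1b genes lie side by side on chromosome 6 in the order Akr1b3, Akr1b8, Akr1b10 and Akr1b7, with a pair of pseudogenes between Akr1b8 and Akr1b10 (RefSeq, GRCm38.p6). Akr1a1 and Akr7a5 are on chromosome 4 and Akr1c13 is on chromosome 13. A RefSeq promoter window was at hand for 6 of the 7 members, all but Akr1b3. Those of the neighbours Akr1b8, Akr1b10 and Akr1b7 are shown because these neighbours are close in coding sequence while their transcripts stood at very different levels. Each runs 5′ to 3′ on the + strand from 150 bases before to 30 after the annotated start. Capitals mark runs of at least 8 bases found unchanged in one of the other windows.
Akr1b8, chr6:34353996-34354175: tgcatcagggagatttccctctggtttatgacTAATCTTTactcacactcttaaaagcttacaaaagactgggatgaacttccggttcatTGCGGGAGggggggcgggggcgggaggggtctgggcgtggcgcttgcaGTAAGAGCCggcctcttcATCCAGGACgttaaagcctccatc
Akr1b10, chr6:34384097-34384276: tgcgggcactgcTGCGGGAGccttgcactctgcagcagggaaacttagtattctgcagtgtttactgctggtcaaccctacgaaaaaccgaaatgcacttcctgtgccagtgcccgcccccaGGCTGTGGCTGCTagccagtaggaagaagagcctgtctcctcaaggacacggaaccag
Akr1b7, chr6:34412212-34412391: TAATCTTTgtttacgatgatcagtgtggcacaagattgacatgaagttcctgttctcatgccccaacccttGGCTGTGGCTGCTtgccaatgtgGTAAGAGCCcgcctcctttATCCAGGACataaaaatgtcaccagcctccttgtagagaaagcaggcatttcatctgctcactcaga

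The marked runs covered 18.9% of the window of Akr1b8, 11.7% of that of Akr1b10 and 21.7% of that of Akr1b7. Shorter or inexact matches are not marked, so the capitals do not measure all that the windows share. Akr1b8 and Akr1b7 shared GTAAGAGCC as their longest run, followed in both by ATCCAGGAC, and Akr1b10 and Akr1b7 shared the 13 bases GGCTGTGGCTGCT. The longest run that Akr1b8 shared with Akr1b10 was TGCGGGAG, at different distances from the start. Aligned over the full RefSeq windows of 300 bases, the Akr1b promoters were 46.1% to 48.7% identical to each other, against 41.4% to 46.7% for the 12 other pairs of members. The coding sequences were far closer, at 84.7% for Akr1b8 with Akr1b10, 84.8% for Akr1b8 with Akr1b7 and 89.2% for Akr1b10 with Akr1b7. Akr1b3 was 71.6% to 72.5% identical to these 3. The core of the antioxidant response element, the site read by the stress factor NRF2 (TGACNNNGC, either strand), was in none of the 6 windows, and 12.4% of all 32851 RefSeq windows of that length held it. The AP-1 site TGANTCA, which can overlap that core, was also in none (7.81% of all windows). The letters TATAAA of a TATA box, sought on either strand at any position, were found in Akr1b8 alone (13.6% of all windows). This match lies on the reverse strand, 159 bases before the start, and is not shown to be a working TATA box. CCAAT was found in Akr1b7 alone (37.4% of all windows). A missing motif says only that these letters are not in this window.

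Near-identical copies limit how well reads can be assigned to some members. Words of 50 bases from each member's coding transcript were looked up in the transcripts of all other genes in GENCODE M21. Of the words of Akr1b8, 3.21% were found elsewhere, as were 3.18% of those of Akr1b10, 15.8% of those of Akr1b7 and none of those of Akr1a1 or Akr7a5. For Akr1b3 the share was 86.2%, with Gm38056 holding 82.4% and the pseudogenes Gm6644, Gm6736 and Gm12138 holding 56.2%, 48.9% and 40.9%. None of these copies was listed above 0.31 TPM in any library. Akr1c13 shared 28.6% of its words with its neighbour in sequence Akr1c12, whose coding part was 96.2% identical. The values of Akr1b3, Akr1b7 and Akr1c13 are uncertain to that extent, since the handling of reads with several matches is not given in the sources used here.

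**Figure D1:**
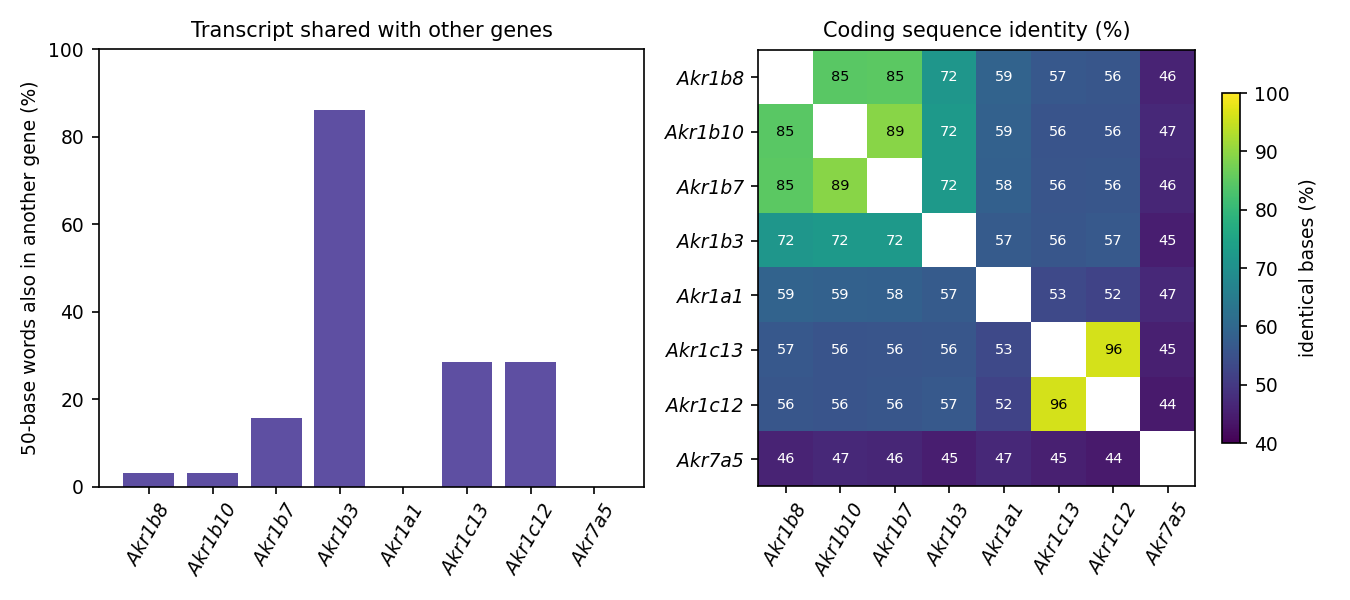
Left, the percentage of 50-base words of each coding transcript that also occur in a transcript of another gene; right, the percentage of identical bases between coding sequences, with the diagonal left blank. Akr1b3 stands at 86.2% in the bar chart, and Akr1b8, Akr1b10 and Akr1b7 form a block of 84.7% to 89.2% in the grid.

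Akr1b8 had less transcript in every library given 25-HC than in every vehicle library. It was at 487.52 TPM in vehicle 1, 449.84 TPM in vehicle 2 and 459.94 TPM in vehicle 3, against 205.4, 221.74 and 202.28 TPM with 25-HC. The 2 groups were each tight and far apart, and the highest treated library had 0.493 times the level of the lowest vehicle library. The means were 466 ± 19.5 TPM with vehicle against 210 ± 10.5 TPM with 25-HC (SD, n = 3 each), a 2.22-fold lower level and a log2 difference of -1.15 (SE 0.16) on the log2(TPM + 1) scale. Against the median shift of all genes this was -1.67, which became -1.30 without vehicle 2 and -1.06 with vehicle 3 as the sole control. Among all 12092 genes, 251 had a log2 difference as low or lower, and in 93 of these the groups did not overlap. By rank within its library, which no common factor can move, Akr1b8 went from place 312 to 368 in vehicle to place 671 to 740 in 25-HC. In bulk RNA, fewer cells with the transcript and less of it per cell cannot be told apart.

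Akr1b3, the aldose reductase, was also lower in each treated library. Its level was 639.83, 748.46 and 677.78 TPM in the vehicle libraries and 462.4, 457.69 and 468.92 TPM in the 25-HC libraries. Vehicle 2, the library with the fewest genes detected, was the highest here. The means were 689 ± 55.1 and 463 ± 5.64 TPM (SD, n = 3 each), a 1.49-fold lower level with a log2 difference of -0.57 (SE 0.15), or -1.09 against the median of all genes. The last value became -0.64 without vehicle 2 and -0.48 with vehicle 3 as the sole control. Together the 4 Akr1b genes summed to 1169 ± 32.8 TPM with vehicle against 694 ± 5.35 TPM with 25-HC.

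Akr1b10, which follows Akr1b8 and the pair of pseudogenes along the chromosome, went the other way by its means. It was at 16.32, 7.91 and 19.04 TPM with vehicle against 22.45, 20.85 and 20.5 TPM with 25-HC. The groups did not overlap, but vehicle 3 lay close to the treated libraries, whose mean was 1.12 times its level. The log2 difference was 0.61 (SE 0.37), or 0.092 against the median of all genes. Without vehicle 2 it was 0.26, or 0.13 against the median under that setting. With vehicle 3 as the sole control it was 0.15, or 0.22 against the median. After median-ratio rescaling, which divides each library by 1 factor, and after quantile normalization the log2 difference was 0.022 and 0.064 with overlapping groups. After a correction for transcript length it was 0.32 with the groups apart. The direction of Akr1b10 is thus not shown apart from how the libraries are scaled. Akr1b7 stayed under 1 TPM, at 0.41, 0.13 and 0.42 TPM with vehicle against 0.25, 0.19 and 0.42 TPM with 25-HC, and was not among the genes tested.

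Akr1a1, the most abundant member in most libraries, overlapped between groups. It was at 683.3, 471.08 and 776.47 TPM with vehicle against 771.98, 778.14 and 781.57 TPM with 25-HC. Vehicle 3 sat among the treated libraries, and vehicle 2 was the lowest. Its log2 difference was 0.30 (SE 0.22) as deposited, or -0.22 against the median of all genes. Without vehicle 2 these values were 0.093 and -0.037. After median-ratio rescaling the difference was -0.33, and the groups overlapped as well. Akr7a5 overlapped too, at 29.82, 37.34 and 22.06 TPM with vehicle against 19.52, 22.06 and 20.34 TPM with 25-HC. Vehicle 3 and 25-HC 2 had the same value. The log2 difference of Akr7a5 was -0.48 (SE 0.28), or -0.997 against the median of all genes. Without vehicle 2 these values were -0.30 and -0.43.

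Akr1c13, of the steroid dehydrogenase branch, was higher in each treated library. It was at 4.45, 1.39 and 5.61 TPM with vehicle against 8.59, 8.26 and 8.27 TPM with 25-HC. All 3 vehicle libraries lay below the treated ones, with vehicle 2 far below the other vehicle libraries. The means were 3.82 ± 2.18 and 8.37 ± 0.188 TPM (SD, n = 3 each), 2.19-fold higher, with a log2 difference of 1.09 (SE 0.44), or 0.57 against the median of all genes. Leaving out vehicle 2 gave 0.64, vehicle 3 as the sole control gave 0.50, and median-ratio rescaling gave 0.61, with the groups still apart. Against the median under each setting these were 0.51, 0.57 and 0.59. Summed with Akr1c12, which shares sequence with it, the level was 6.03, 2.27 and 6.88 TPM with vehicle against 10.18, 9.97 and 10.21 TPM with 25-HC, so the groups stayed apart for the sum.

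**Figure D2:**
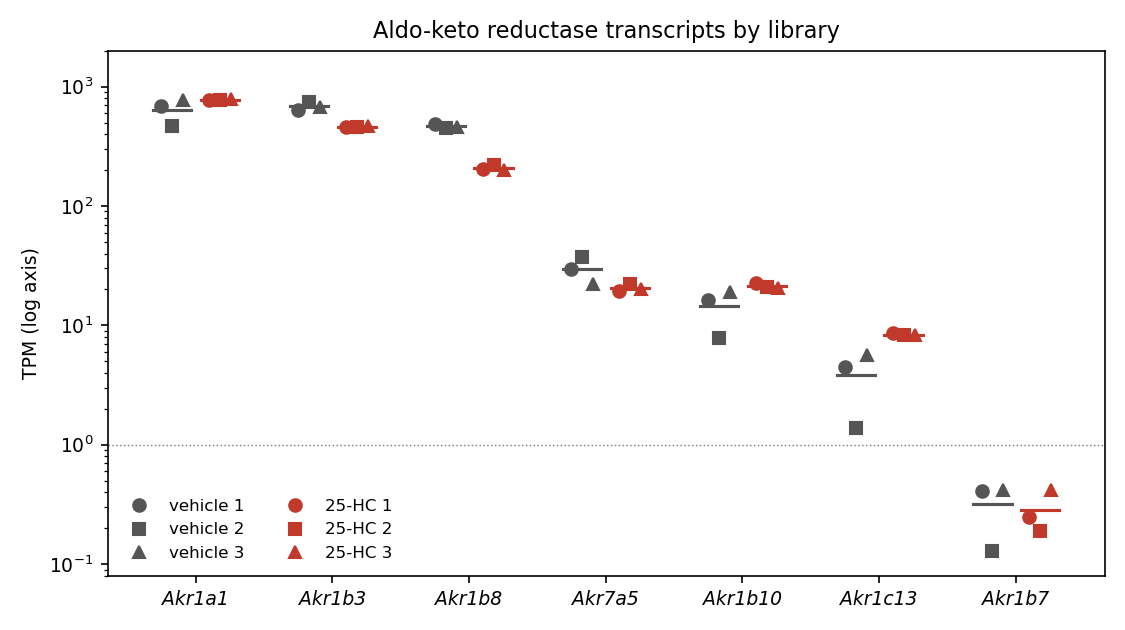
TPM of the 7 aldo-keto reductases (log axis) in each library, with grey symbols for vehicle, red symbols for 25-HC, short lines at the group means and a dotted line at 1 TPM. Akr1b8 and Akr1b3 lie lower in all 3 treated libraries, Akr1b10 and Akr1c13 lie higher, and vehicle 2 (grey squares) is the lowest vehicle library for Akr1a1, Akr1b8, Akr1b10, Akr1c13 and Akr1b7.

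Of the 6 members that passed the filter of 1 TPM on the mean, 2 had every 25-HC library below every vehicle library and 2 had every one above. Over all genes tested these shares were 8.10% and 22.6%. Since the contrast chose the set, nothing is read from the members' counts. The median log2 difference of the 6 was -0.087, against 0.52 for all genes. Across 18 other settings, Akr1b8 and Akr1b3 were lower in all 25-HC libraries, and Akr1c13 higher, in each one. Most of these settings could not undo a separation, so they do not test it. A changed pseudocount, filter, moderation or block keeps the order of the libraries, and leaving libraries out only removes points. Libraries could change order only with the length correction, with mitochondrial genes dropped, or in the rescaling and quantile settings named above. Akr1b10 was higher without overlap in all but those rescaling and quantile settings. Akr1b8 ranged from -1.78 after median-ratio rescaling to -1.11 without vehicle 1, and Akr1b3 from -1.20 after that rescaling to -0.51 without vehicle 2.

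**Figure D3:**
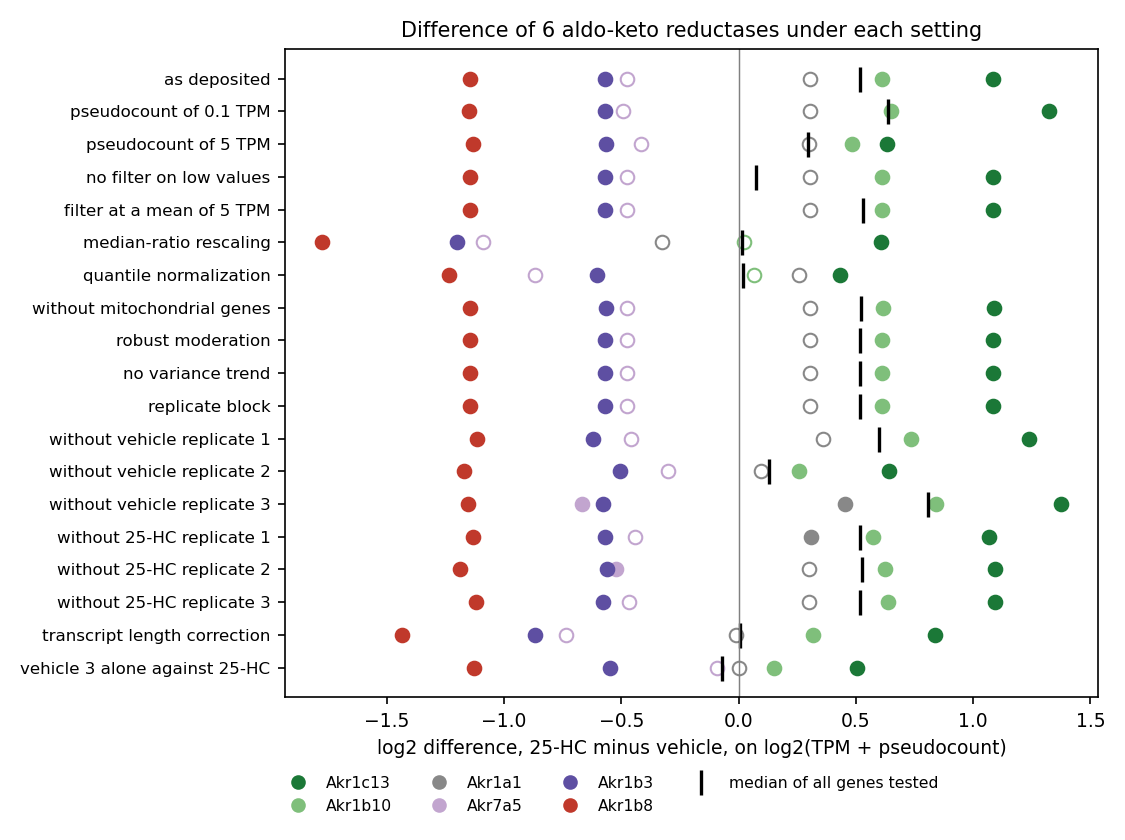
Log2 difference (25-HC minus vehicle) of 6 aldo-keto reductases under the deposited values and 18 other settings; filled circles have no overlap between groups, open circles overlap, and black ticks mark the median of all genes tested. Akr1b8 stays between -1.78 and -1.11, while Akr1a1 runs from -0.33 to 0.45 and crosses 0. Most settings could not undo a separation, so a filled circle tests it only where libraries could change order.

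No order of the members by level set the groups apart. In vehicle 1, vehicle 3 and all 25-HC libraries the order was Akr1a1, Akr1b3, Akr1b8, and in vehicle 2 Akr1b3 came first. The vehicle ranges of Akr1a1 and Akr1b3 overlapped. Within libraries the ratio of Akr1b3 to Akr1a1 was 0.936 in vehicle 1, 0.873 in vehicle 3 and 1.59 in vehicle 2, so vehicle 2 alone reversed their order. In 25-HC the ranges of all 3 genes were apart. Akr7a5 was above Akr1b10 in each vehicle library, and in 25-HC their ranges overlapped. The 7 genes summed to 1846 ± 123 TPM with vehicle against 1501 ± 9.29 TPM with 25-HC. Akr1b8 made up 26.2%, 26.2% and 23.5% of that sum in vehicle 1, 2 and 3 and 13.8%, 14.7% and 13.5% in the 25-HC libraries. Akr1a1 made up 36.7%, 27.4% and 39.6% in vehicle and 51.8%, 51.6% and 52.0% in 25-HC.

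Ratios of a pair of genes within 1 library remove a factor common to all genes of that library. In 3 of the 4 ratios given here vehicle 2 was still the highest library. The ratio of Akr1b8 to Akr1a1 was 0.713, 0.955 and 0.592 in vehicle and 0.266, 0.285 and 0.259 in 25-HC. The treated ratios were all under the lowest vehicle ratio, and the mean ratio in 25-HC was 0.358 times that in vehicle (0.413 without vehicle 2). Akr1b8 was also lower relative to Akr1b3, itself a member that was lower, with ratios of 0.762, 0.601 and 0.679 in vehicle and 0.444, 0.484 and 0.431 in 25-HC. The ratio of Akr1b8 to Akr1b10 was 29.9, 56.9 and 24.2 in vehicle and 9.15, 10.6 and 9.87 in 25-HC, a mean 0.267 times the vehicle one (0.366 without vehicle 2). Akr1b3 relative to Akr1a1, a ratio chosen after the values were seen, was 0.936, 1.59 and 0.873 in vehicle and 0.599, 0.588 and 0.600 in 25-HC. For none of these 4 ratios did the groups overlap. Akr1b8, whose values chose the set, is in 3 of the 4, so no support is read from this. With Akr1b8 lower and Akr1b10 higher in each treated library, their ratio could not overlap. A trend with transcript length does not cancel in a ratio. The coding transcripts of the members in GENCODE M21 ran from 1262 to 1420 bases, and the part of such a trend in these ratios was not tested.

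**Figure D4:**
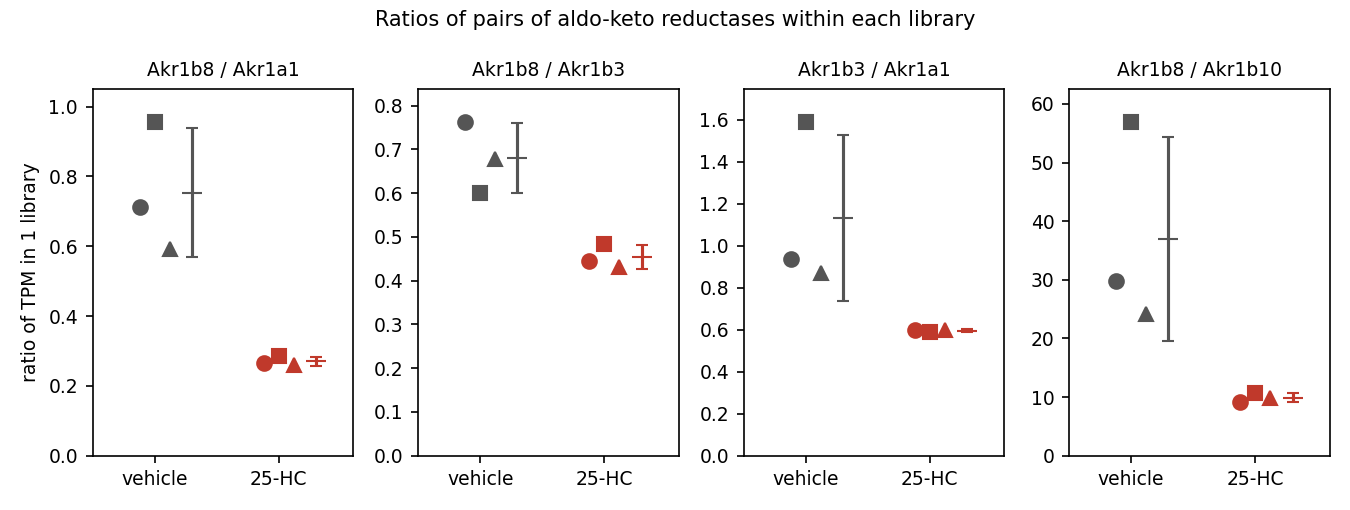
Ratios of TPM of pairs of aldo-keto reductases in each library (y axes start at 0), with circles, squares and triangles for replicates 1, 2 and 3 and bars for the mean ± SD of each group (n = 3). All 25-HC ratios lie below all vehicle ratios, and the square for vehicle 2 is the highest in every panel but that of Akr1b8 to Akr1b3.

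By a fixed measure of likeness, the root mean square distance between centred log2(TPM + 1) profiles over the 6 libraries, the 5 nearest of 8441 other genes averaging at least 5 TPM were Gm16754, Mustn1, Traf1, Gstt1 and an assembled locus without a symbol (distances 0.086 to 0.14). Traf1, an adaptor of TNF receptors, was at 31.85, 25.53 and 26.55 TPM with vehicle against 13.0, 12.39 and 13.05 TPM with 25-HC. Gstt1, a glutathione transferase, was at 48.53, 39.35 and 44.67 TPM with vehicle against 19.45, 21.88 and 22.04 TPM with 25-HC. Mustn1, a small protein known from muscle, was at 10.7 ± 1.20 and 3.97 ± 0.434 TPM (SD, n = 3 each), and Gm16754 was at 8.37 ± 0.580 and 3.48 ± 0.0709 TPM. All 5 were lower in every treated library, as the measure requires of a near neighbour. Akr1b3 was the nearest other member, at place 128 with a distance of 0.31, followed by Akr7a5 at place 416, while Akr1a1, Akr1b10 and Akr1c13 were at places 2749, 3991 and 5652.

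The rest of the family was sparse in these cells. Of 13 other aldo-keto reductases, 3 passed the filter of 1 TPM on the mean. Akr1e1, which reduces anhydrofructose, was at 11.56, 3.91 and 20.35 TPM with vehicle against 18.71, 23.15 and 23.58 TPM with 25-HC. Kcnab2, a potassium channel subunit with the aldo-keto reductase fold, was at 22.41, 12.13 and 43.82 TPM with vehicle against 43.01, 41.12 and 42.72 TPM with 25-HC. Both overlapped between groups, with vehicle 3 inside or above the treated range. Akr1c12 was at 1.24 ± 0.351 and 1.75 ± 0.178 TPM (SD, n = 3 each), without overlap as deposited and with overlap after median-ratio rescaling. The other 10 were under 1 TPM in every library, and Akr1c6, Akr1c14, Akr1c18, Akr1c20, Akr1c21 and Akr1cl were listed at 0 in all 6.

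Genes that work beside these enzymes were taken from lists that, with the family list above, make 7 lists of 79 genes, 58 of them tested. None of the 58 was called higher or lower by limma (smallest adjusted p = 0.389), against 0.00827% and 0% of all genes, and 6 of 58 had an unadjusted p under 0.05, all higher, where all 12092 genes gave 996 higher and 356 lower. Every 25-HC library was above every vehicle library for 15 of the 58 (25.9%), near the 22.6% of all genes, and below for 0, where all genes gave 8.10%. After median-ratio rescaling these counts were 11 (19%) and 9 (15.5%), against 18.4% and 18.1% of all genes, so the count of 0 downward changed with the scale of the libraries. The median log2 difference of the 58 was 0.52, the same as for all genes at this rounding.

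In the NRF2 list, the system that induces many carbonyl-reducing enzymes, 5 of 19 tested genes separated upward and 0 downward. Over all genes tested these shares were 22.6% and 8.10%. The median log2 difference of the list was 0.96 (0.32 without vehicle 2, 0.35 after rescaling). For all genes it was 0.52 (0.13 without vehicle 2, 0.013 after rescaling). None was called by limma, and 4 of the 19 had an unadjusted p under 0.05, all higher. Nfe2l2, which encodes NRF2, was at 8.34, 1.38 and 12.97 TPM with vehicle against 27.47, 28.56 and 28.86 TPM with 25-HC, so the treated libraries had 2.18 times the level of vehicle 3 (limma adjusted p = 0.389). That was the highest such ratio of the 19 genes, and the lowest was 0.488, for Gclm. Fth1, the ferritin heavy chain, was at 11606, 11222 and 11303 TPM with vehicle against 13464, 13572 and 13363 TPM with 25-HC, apart as deposited but overlapping after rescaling. Gsr, the glutathione reductase, overlapped at 42.3 ± 43.7 and 74.5 ± 1.30 TPM, as did Ftl1, the ferritin light chain, at 8469 ± 1856 and 8609 ± 151 TPM (SD, n = 3 each). Rescaling put 5 of the 19 upward (Nfe2l2, Mafg, Bach1, Slc7a11 and Sqstm1) and 4 downward (Keap1, Srxn1, Prdx1 and Txn1). Of all genes tested it put 18.4% upward and 18.1% downward. Gclm and the genes in brackets other than Nfe2l2 were named after their values were seen.

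Other enzymes of carbonyl metabolism showed no separation downward as deposited, with 4 of 14 upward (1 upward and 2 downward after rescaling). All genes tested gave 22.6% upward and 8.10% downward as deposited, and 18.4% and 18.1% after rescaling. Of the 14, limma called 0, and 0 had an unadjusted p under 0.05. Aldh3a2, the fatty aldehyde dehydrogenase, was at 7.39, 0.94 and 12.96 TPM with vehicle against 16.67, 15.96 and 15.52 TPM with 25-HC, and stayed apart after rescaling. Adh5, the glutathione-dependent formaldehyde dehydrogenase, was at 77.4 ± 25.8 and 97.0 ± 2.44 TPM, while Aldh2, of mitochondria, overlapped at 194 ± 93.1 and 253 ± 4.14 TPM (SD, n = 3 each). Aldh9a1 overlapped as well, at 48.15 ± 33.9 and 76.1 ± 2.30 TPM, with vehicle 3 the highest library.

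The list for NADPH supply has 7 genes and takes in the pentose phosphate pathway, not all of whose enzymes make NADPH. Idh1, the cytosolic isocitrate dehydrogenase, alone separated as deposited. It was at 9.41, 3.97 and 20.02 TPM with vehicle against 34.88, 35.04 and 33.79 TPM with 25-HC (limma adjusted p = 0.389, unadjusted p = 0.0139). The pentose phosphate enzymes Pgls and Taldo1 overlapped, with means of 448 and 460 TPM with vehicle against 352 and 403 TPM with 25-HC. Me1 overlapped at 5.14 ± 3.92 and 8.37 ± 0.395 TPM (SD, n = 3 each), with vehicle 3 the highest library. Sord, which oxidises the sorbitol made by Akr1b3, was at 24.18, 6.15 and 57.95 TPM with vehicle against 65.39, 63.7 and 65.84 TPM with 25-HC. It was the gene with the largest difference of the 6 polyol and hexose genes, of which 2 separated upward. In the prostaglandin list 2 of 7 separated upward, Pla2g4a, which frees arachidonate, at 4.26 ± 3.85 and 11.5 ± 0.943 TPM, and Ptges2, a prostaglandin E synthase, at 16.4 ± 11.1 and 29.5 ± 1.78 TPM (SD, n = 3 each). Ptges3, with the highest mean of that list, overlapped at 112 ± 67.3 and 142 ± 3.53 TPM, with vehicle 3 the highest library. The tested genes of the glucuronate route around Akr1a1 were Ugp2 and Ugdh, and both overlapped as deposited. Hk1 and Slc2a1, which phosphorylate glucose and carry it into the cell, overlapped with vehicle 3 the highest, at 40.6 ± 32.7 and 64.0 ± 46.2 TPM in vehicle. After median-ratio rescaling the counts upward and downward were 1 and 1 of 7 for NADPH supply, with G6pdx the lower gene, and 2 and 1 of 6 for the polyol and hexose genes, with Hk2 the lower one. They were 1 and 1 of 7 for the prostaglandin list, where Ptges2 overlapped and Ptges was the lower one, and 1 and 0 of 2 for the glucuronate route, where Ugdh was the higher one. G6pdx, Hk2 and Ptges were named after their values were seen. These counts stand beside shares over all genes tested of 22.6% upward and 8.10% downward as deposited, and 18.4% and 18.1% after rescaling. None of these last 4 lists had a gene called by limma, and their counts with an unadjusted p under 0.05 were 1, 0, 1 and 0.

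**Figure D5:**
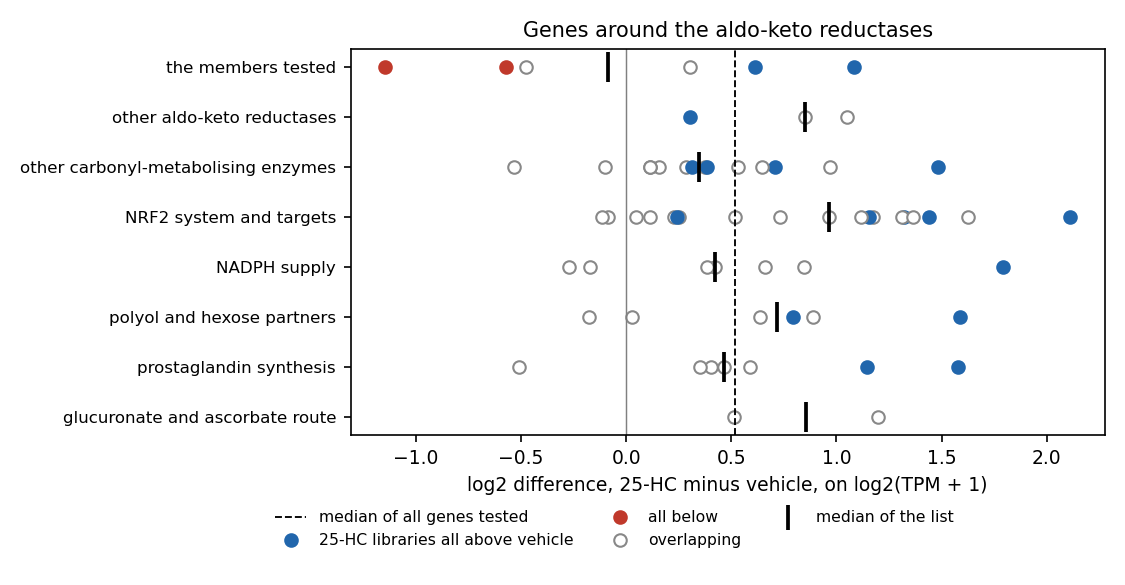
Log2 difference (25-HC minus vehicle, log2(TPM + 1)) of each tested gene of the members and the 7 lists; blue points have all 25-HC libraries above vehicle, red points all below, open points overlap, short ticks are list medians and the dashed line is the median of all genes, 0.52. The 2 red points are Akr1b8 and Akr1b3, and no gene of the 7 lists lies below without overlap.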

How the data were processed

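Per the labels, RAW264.7 cells were given vehicle or 25-HC and libraries were made with an Illumina TruSeq RNA kit. The submitters' processing notes name HISAT2, StringTie, RSEM and GRCm39, without roles or versions. The sources used here do not give the annotation, the strand setting or the handling of multiple matches. In the table, the authors deposited TPM per gene and library, which keeps no depth, so no counting interval could be given.

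Groups and replicate numbers came from titles. The 12092 genes averaging 1 TPM or more entered a two-sided limma fit (limma 3.58.1, R 4.3.3) of log2(TPM + 1) with a mean-variance trend, all 6 libraries and no block. Adjusted p-values are Benjamini-Hochberg, called under 0.05, and measure only the spread between these libraries. The fit was tested on simulated data with equal noise in all libraries, which does not test it for libraries as unlike as these. Separation means that all 25-HC libraries lie above, or below, all vehicle libraries. The members and lists were chosen with earlier results of these data known. List genes named were, per list, up to 2 with the highest mean and 2 with the largest difference. Akr1c12, G6pdx, Hk2, Ptges and further genes of the NRF2 list were additions made after their values were seen. Settings varied were the pseudocount (0.1 or 5), the filter (none or 5 TPM), scaling, mitochondrial genes, moderation, a replicate block and each library left out. A length correction (loess, span 0.75, degree 2, for the 92.2% of tested genes with a length in GENCODE M21, another build, so no coordinates of it are given) and vehicle 3 alone were added after seeing the data. Promoters came from RefSeq (GRCm38.p6). Alignments used biopython 1.88 in Python 3.11.15.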

Additional observations from a re-analysis of the deposited data

How the results depend on the processing

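The limma test called 1 gene higher and 0 lower as deposited (996 and 356 at an unadjusted p under 0.05). It called 0 higher with a pseudocount of 5, with no filter, with a filter of 5 TPM and with the replicate block, 4 higher and 1 lower after quantile normalization, 1 and 1 after median-ratio rescaling, and 18 and 4 after length correction. Leaving out 1 library gave 0 to 671 higher and 0 to 51 lower, the highest counts without vehicle 3, and 9 and 4 without vehicle 2. Deviations of same-numbered libraries from their group means were hardly correlated (r -0.013, 0.056 and 0.030). With so few libraries this cannot show whether they were paired. In this balanced design the block cannot change a log2 difference, and it moved only the SE, for Akr1b8 from 0.16 to 0.26. Median-ratio rescaling and quantile normalization each left 1 member separated upward, Akr1c13.

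After median-ratio rescaling the log2 differences were -1.78 for Akr1b8, -1.20 for Akr1b3, -1.09 for Akr7a5, -0.33 for Akr1a1 (reversed), 0.022 for Akr1b10 and 0.61 for Akr1c13. After quantile normalization they were -1.24 for Akr1b8, -0.60 for Akr1b3, -0.87 for Akr7a5, 0.26 for Akr1a1, 0.064 for Akr1b10 and 0.43 for Akr1c13. After length correction they were -1.44 for Akr1b8, -0.87 for Akr1b3, -0.74 for Akr7a5, -0.0098 for Akr1a1 (reversed), 0.32 for Akr1b10 and 0.84 for Akr1c13. Against vehicle 3 alone they were 0.0014 for Akr1a1, 0.15 for Akr1b10, 0.50 for Akr1c13 and -0.093 for Akr7a5. The cause of these moves was not tested. Leaving out 1 library gave -1.19 to -1.11 for Akr1b8, -0.62 to -0.51 for Akr1b3, -0.67 to -0.30 for Akr7a5, 0.093 to 0.45 for Akr1a1, 0.26 to 0.84 for Akr1b10, 0.64 to 1.38 for Akr1c13 and -0.14 to 0.024 for Akr1b7. TPM keeps no depth, so the precision of low genes such as Akr1b7 is unknown.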
